A study of Mus musculus with 16 samples.

Results

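The comparison set 3B3l mESCs (mouse embryonic stem cells) cultured in 2i, titled 3B3-3l in the sample labels, against wild-type J1 mESCs cultured in 2i. Arrays were taken by line and medium alone, which gave 2 arrays of 3B3l-2i and 3 arrays of J1-2i, 5 of the 16 arrays of the series. J1 is a male wild-type line. 3B3l derives from J1 cells in which Dnmt3a and Dnmt3b were knocked out and which were then given constitutively expressed constructs of Dnmt3b and of its cofactor Dnmt3l. Both lines had spent 2 weeks without feeder cells in N2B27 medium with 1000 U/ml LIF, the MEK inhibitor PD0325901 at 1 µM and the Gsk3 beta inhibitor CHIR99021 at 3 µM. 3B3l is a single line, so the loss of the endogenous genes, the added constructs and the history of the line cannot be told apart. The labels do not say whether replicates were separate cultures, and p-values measure only the spread between these arrays, which may be technical.

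DNA methylation at CG sites is laid down by the de novo methyltransferases Dnmt3a and Dnmt3b, helped by the catalytically inactive cofactor Dnmt3l, and is copied at replication by Dnmt1 with Uhrf1. In 2i the MEK inhibitor blocks the ERK pathway and the Gsk3 inhibitor mimics Wnt signalling, and wild-type mESCs lower their de novo methyltransferases and lose much of their methylation. Among the genes known to be silenced by promoter methylation in mouse cells are germline genes, such as those of the piRNA pathway and meiosis, and X-linked testis and oocyte gene clusters. Methylation itself was not measured on these arrays.

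Of the 55681 non-control probes 27113 were tested, those for which some group had every array well above background. They named 13912 genes and included 9270 probes without a gene name. Levels are given on the log2 scale relative to the 75th percentile of the spots of the same array, so that 0 is the level of that percentile, and the levels of different probes are not compared. A difference is 3B3l-2i minus J1-2i on that scale. A gene was called when limma gave at least 1 of its probes a Benjamini-Hochberg adjusted p of at most 0.05 and the difference was at least 2-fold. Within groups, arrays correlated at 0.984 to 0.987 over the probes tested, and between groups at 0.931 to 0.945. The share of spots well above background was 39.5% to 39.9% in 3B3l-2i and 41.9% to 46.8% in J1-2i. Both 3B3l-2i arrays lay on slide 3, J1-2i arrays 1 and 3 on slide 1 and J1-2i array 2 on slide 2, so that slide and line cannot be told apart within these 5 arrays. Slide 3 was also scanned on another day than slides 1 and 2. The only J1 array on slide 3 was J1-serum 1, which had 1303 outlier spots left out, against 274 to 556 on the other arrays. A fit with slide as a term rests on that array. It ended the call of 43 of the 202 called probes of the genes that the lists and naming rules held, and its values are given for those genes where they are described. Dppa5a, Esrrb, Nanog, Pou5f1, Sall4, Sox2, Utf1 and Zfp42, markers of mESCs, were well above background on all 5 arrays, with saturated spots for Dppa5a on all of them and for Nanog, Pou5f1 and Zfp42 on some.

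In 3B3l-2i 1287 genes were higher than in J1-2i, 9.25% of the 13912 tested, and 1071 were lower, 7.70%. Either way 2350 genes were called, 16.9%, among them 8 whose probes were called in opposite directions. Of the 9270 unnamed probes 960 were higher and 621 lower. The median difference was 0.10 over all probes and 0.10 over genes by their brightest probe, with 7885 genes above and 5996 below 0.

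The targeted genes were measured by single or several probes. Dnmt3a stood at -4.33 and -4.52 in 3B3l-2i, where it was not well above background on either array, and at -0.96, -0.85 and -0.62 in J1-2i. The groups did not overlap, and the level in 3B3l-2i was at least 2.85-fold lower (adjusted p = 1.6e-08, limma). Such bounds are given where 1 group was not well above background on any array and the other was on every array. They set the mean of the bright group against the dim group, each dim array being read at its own value or at its lowest signal well above background, whichever was higher. Where the own values were higher on every dim array, the bound is the plain fold between the group means, as for Phlda1, Rhox10 and Amn among others. Where the brighter group was well above background on only some arrays, their number is stated, and the difference printed is measured against a background reading.

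The 3 probes of Dnmt3b, which 3B3l lacks as an endogenous gene and carries as a construct, disagreed. The brightest probe read 5.64 and 6.01 in 3B3l-2i against 0.68, 0.55 and 0.64 in J1-2i, a difference of 5.20 (SE 0.13, adjusted p = 1.8e-10, limma). A second probe read -0.89 and -0.55 against 2.25, 1.92 and 1.93, a difference of -2.75. The third probe was not well above background in 3B3l-2i and read 0.37, 0.23 and 0.14 in J1-2i, so that 3B3l-2i was at least 5.93-fold lower there. Where these probes lie in the transcript is not given in the sources used here, and which of them the construct contains was not tested.

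Dnmt3l read 4.29 and 4.48 in 3B3l-2i and 0.73, 0.79 and 0.68 in J1-2i, a difference of 3.65 (SE 0.15, adjusted p = 8.2e-09, limma) between groups that did not overlap. Dnmt1, the maintenance methyltransferase, read 2.21 and 1.91 against 2.32, 2.35 and 2.44, a difference of -0.32 that missed the threshold (adjusted p = 0.062, limma). For its partner Uhrf1 the groups overlapped, at 4.70 and 4.66 against 4.68, 4.41 and 4.54.

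Over the list of 22 genes of the methylation machinery 6 were higher and 3 lower, Dnmt3b counted both ways, against 9.25% and 7.70% over all genes, with a median of 0.20. Dppa3, a factor known to keep Uhrf1 away from chromatin, had the largest difference on this list apart from the targeted genes. It read -4.13 and -4.05 in 3B3l-2i, not well above background, and 1.42, 1.54 and 1.32 in J1-2i, at least 13.4-fold lower in 3B3l-2i (adjusted p = 1.4e-09, limma). The higher genes besides Dnmt3b and Dnmt3l were the methyl-CpG binding Mbd1 (1.87 by its called probe, -0.08 and 0.22 by its other probes) and Mbd3 (1.2 by its dimmer probe, 0.66 and not called by the other), the imprint regulator Zfp57 (1.05 by its brighter probe, -0.61 by the other, the first at 0.27 and not called with slide as a term) and the glycosylase Tdg by the dimmest of its probes, at least 3.29-fold, with J1-2i not well above background. With slide as a term the Tdg difference went from 1.91 to 1.14 and lost its call (adjusted p = 0.30, limma). The hydroxylases Tet1 and Tet2 differed by 0.38 and 0.80 at their brighter probes and were not called.

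**Figure D1:**
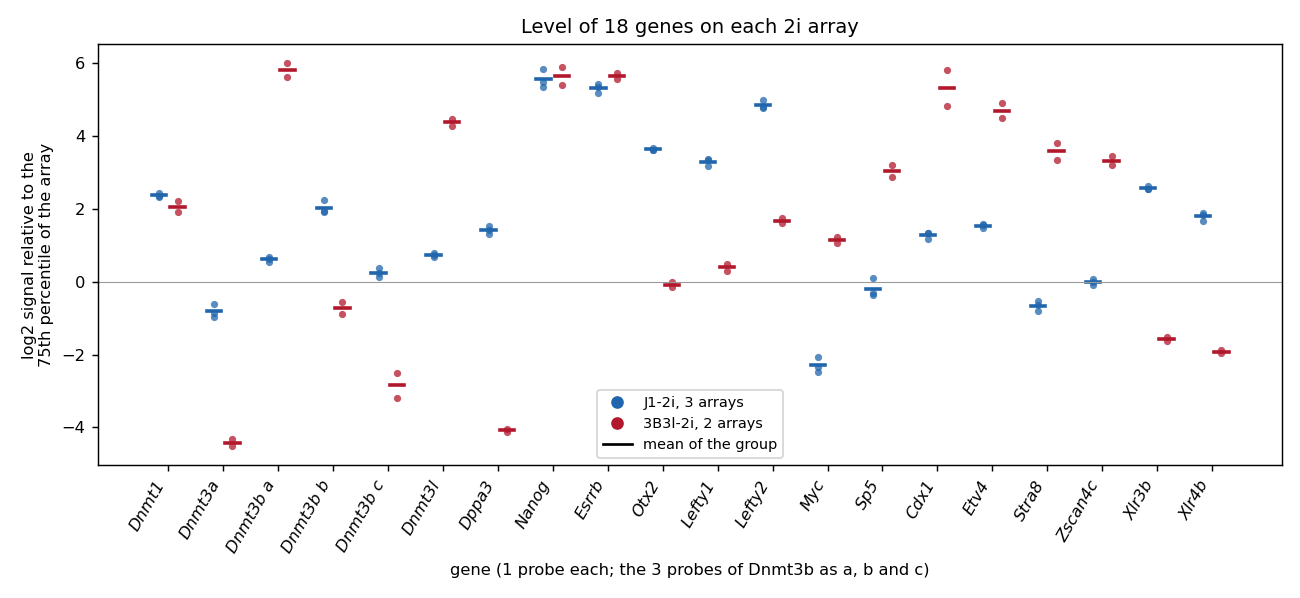
Level of 20 probes for 18 genes on each array, as log2 processed signal relative to the array's 75th percentile (vertical axis), with blue points for the 3 J1-2i arrays, red points for the 2 3B3l-2i arrays and Dnmt3b shown by probes a, b and c. The brightest Dnmt3b probe lies near 6 in 3B3l-2i while the other Dnmt3b probes lie below J1-2i, and the points of the lines are separate for Dppa3 and Xlr3b.

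The X-linked Xlr genes, a multicopy family expressed in lymphocytes and germ cells, had the lowest median of the lists examined. Of 10 Xlr, Slx and Sly genes tested 8 were lower in 3B3l-2i, 1 of them, Y-linked Sly, by 1 probe and higher by another, against 7.70% lower over all genes. The median difference was -3.82. The lower Sly probe went from -1.1 to 0.14 with slide as a term (adjusted p = 0.81, limma). The RefSeq promoters of Xlr3b, Xlr4b and Xlr5b, 1 copy of each subfamily, are shown because these genes moved together. They run 5′ to 3′ in the direction of the gene from 250 bases before to 50 bases after the start (GRCm38.p6, + strand), with each CG in capitals.
Xlr3b, chrX:73191929-73192228: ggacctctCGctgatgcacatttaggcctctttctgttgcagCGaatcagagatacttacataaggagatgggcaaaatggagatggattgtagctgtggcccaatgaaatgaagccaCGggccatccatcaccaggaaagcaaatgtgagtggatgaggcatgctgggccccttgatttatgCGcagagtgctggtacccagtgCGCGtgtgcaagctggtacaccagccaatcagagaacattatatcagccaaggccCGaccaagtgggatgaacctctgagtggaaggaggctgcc
Xlr4b, chrX:73214083-73214382: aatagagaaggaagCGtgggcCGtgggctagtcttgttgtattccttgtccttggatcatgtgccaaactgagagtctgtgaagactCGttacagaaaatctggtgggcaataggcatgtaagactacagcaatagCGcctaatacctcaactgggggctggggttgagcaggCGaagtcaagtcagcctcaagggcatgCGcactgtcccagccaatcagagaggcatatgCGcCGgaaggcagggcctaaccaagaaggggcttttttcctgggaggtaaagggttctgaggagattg
Xlr5b, chrX:73148591-73148890: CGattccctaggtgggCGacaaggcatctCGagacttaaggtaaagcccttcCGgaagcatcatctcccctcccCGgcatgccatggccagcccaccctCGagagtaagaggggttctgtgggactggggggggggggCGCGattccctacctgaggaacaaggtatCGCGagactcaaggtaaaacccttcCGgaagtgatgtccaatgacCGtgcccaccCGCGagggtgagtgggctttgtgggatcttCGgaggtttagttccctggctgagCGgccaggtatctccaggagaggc
The window of Xlr3b holds 7 CG, that of Xlr4b 8 and that of Xlr5b 16, while the median over the tested genes with a promoter entry was 19. Over all 32851 promoter windows the median was 7. Copies of a subfamily can differ, since the window of Xlr5c, also lower in 3B3l-2i, holds 1 CG.

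Xlr3b read -1.53 and -1.63 in 3B3l-2i and 2.62, 2.54 and 2.55 in J1-2i, a difference of -4.14 (SE 0.09, adjusted p = 8.2e-11, limma). Xlr4b read -1.96 and -1.89 against 1.88, 1.67 and 1.83, a difference of -3.72. Neither gene's groups overlapped. The probes for Xlr3a, Xlr4a, Xlr5b and Xlr5c were not well above background in 3B3l-2i, which was at least 8.10-fold, 9.92-fold, 5.88-fold and 6.89-fold lower than J1-2i, and Xlr5a was at least 1.38-fold lower. The copies are near identical in sequence, so a probe may read more than 1 of them. Slx differed by -0.80 and was not called. In TKO-2i, mESCs without Dnmt1, Dnmt3a and Dnmt3b in the same medium, Xlr3b and Xlr4b averaged 3.29 and 3.00.

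The Rhox homeobox cluster, also X-linked and expressed in the reproductive tract and placenta, moved both ways. Of 12 Rhox genes tested 4 were higher and 3 lower, against 9.25% and 7.70% over all genes, with a median of -0.53 that was 0.68 in the authors' normalized table, which lists fewer of the genes. Rhox5 read 4.29 and 4.30 in 3B3l-2i against 2.74, 2.68 and 2.54 in J1-2i, a difference of 1.64. Rhox6 and Rhox13 differed by 1.44 and 1.29, and Rhox10 was at least 5.78-fold higher in 3B3l-2i, with J1-2i not well above background. The lower members were Rhox4a, Rhox4e and Rhox4g, near identical copies, none well above background in 3B3l-2i and at least 1.66-fold, 2.13-fold and 1.62-fold lower than J1-2i. The probe of Rhox4g lost its call with slide as a term (-1.86, adjusted p = 0.16, limma).

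Among 26 germline and meiosis genes 9 were higher, against 9.25% over all genes, and 4 lower, against 7.70%, with a median of 0.51. Stra8, which germ cells need to enter meiosis, showed the largest rise of this list. Its promoter window and that of Zscan4c, described next, are shown for comparison with the Xlr windows, again with each CG in capitals (GRCm38.p6, + strand).
Stra8, chr6:34920698-34920997: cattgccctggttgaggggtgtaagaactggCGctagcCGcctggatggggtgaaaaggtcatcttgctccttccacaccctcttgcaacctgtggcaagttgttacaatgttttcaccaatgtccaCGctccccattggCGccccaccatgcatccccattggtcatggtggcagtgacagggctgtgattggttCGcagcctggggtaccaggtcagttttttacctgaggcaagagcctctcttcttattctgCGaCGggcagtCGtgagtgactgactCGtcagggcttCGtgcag
Zscan4c, chr7:11005495-11005794: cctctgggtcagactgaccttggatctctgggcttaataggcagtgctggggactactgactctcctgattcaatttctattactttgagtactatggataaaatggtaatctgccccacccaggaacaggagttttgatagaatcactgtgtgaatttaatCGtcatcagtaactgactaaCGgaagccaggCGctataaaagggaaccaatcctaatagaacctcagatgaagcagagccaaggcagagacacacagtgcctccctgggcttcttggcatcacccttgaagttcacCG
Stra8 holds 10 CG and Zscan4c 4. Stra8 read 3.35 and 3.82 in 3B3l-2i and -0.81, -0.64 and -0.54 in J1-2i, a difference of 4.24 (SE 0.20, adjusted p = 2.6e-08, limma) with no overlap.

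Ddx4, the germ cell RNA helicase, differed by 1.82, and the piRNA factor Mael by 1.77. Syce1, of the synaptonemal complex, differed by 1.41, or by 0.97 and so less than 2-fold with slide as a term. Slc25a31 (1.46), Brdt (1.99) and Tex101 (2.93) were also higher, but Slc25a31 was well above background on 2 and Brdt on 1 of the 3 J1-2i arrays, and Tex101 on 1 of the 2 3B3l-2i arrays and no J1-2i array. Mov10l1, Sycp1 and Asz1 were called without being well above background in either group, and with slide as a term Mov10l1 (0.81, adjusted p = 0.11, limma) and Asz1 (-1.08 without the term and -1.1 with it, adjusted p = 0.09, limma) were no longer called. On the lower side Hormad1, a protein of unsynapsed meiotic chromosomes, differed by -1.39, the meiotic cohesin Smc1b was at least 3.61-fold lower, and the meiotic recombinase Dmc1 was at least 1.29-fold lower by its most changed probe. That Dmc1 probe lost its call with slide as a term (-0.85, adjusted p = 0.14, limma), while another, well above background on 2 of the 3 J1-2i arrays and no 3B3l-2i array, kept it (-1.66 without the term, -1.57 with it). Dazl and Fkbp6, germline genes with methylated promoters in somatic cells, were lower by less than 2-fold. Dazl read 1.55 and 1.83 in 3B3l-2i against 2.53, 2.39 and 2.87 in J1-2i (difference -0.91, adjusted p = 0.0071, limma), and Fkbp6 read 1.46 and 1.2 against 2.08, 2.15 and 2.01 (difference -0.75, adjusted p = 0.0026, limma). The groups did not overlap for either gene, and with slide as a term the differences were -0.25 for Dazl (adjusted p = 0.57, limma) and -0.61 for Fkbp6 (adjusted p = 0.13, limma).

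The Zscan4 genes mark a rare state of mESCs that resembles the 2-cell embryo. Of 12 two-cell-like genes tested 8 were higher in 3B3l-2i and none lower, against 9.25% higher over all genes, with a median of 1.00. Zscan4c read 3.46 and 3.20 in 3B3l-2i and -0.09, -0.004 and 0.08 in J1-2i, a difference of 3.33 (SE 0.15, adjusted p = 2.1e-08, limma). Zscan4a differed by 3.20 and 3.18 by its probes, Zscan4b by 2.38 and Zscan4f by 2.05. The other higher genes were Gm4340 (1.47), AF067061 (1.21 and 1.48 by its probes), Usp17la, at least 3.97-fold higher by its called probe with J1-2i not well above background but at least 1.30-fold lower and not called by its brighter probe, and Sp110, called by 1 of its 3 probes (1.12) and differing by 0.25 at the brightest. With slide as a term that Sp110 probe (1.13, adjusted p = 0.13, limma) and the AF067061 probe at 1.21 (0.99, short of 2-fold) lost their calls. The Zscan4 and Usp17l copies are near identical, and probes may not tell them apart.

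**Figure D2:**
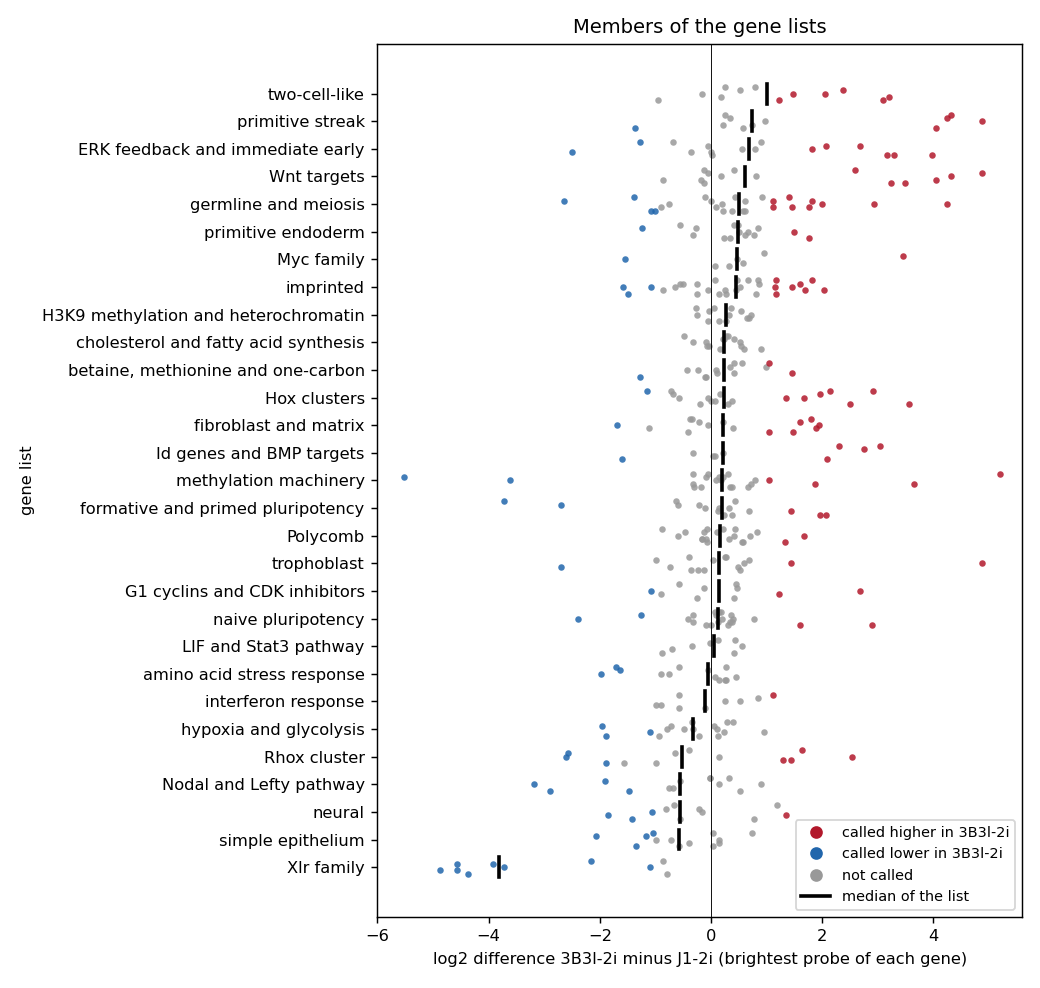
Difference between 3B3l-2i and J1-2i (log2, horizontal axis) for each tested member of the gene lists, by the brightest probe of the gene, coloured by whether that probe was called higher, lower or not called, with a black bar at the list's median. The Pramel list and the Y-linked and X-inactivation list, with few tested genes, are not drawn. The Xlr family has its median at -3.82 and the two-cell-like list at 1.00, while the LIF and Stat3 list and the cholesterol and fatty acid list have no called member.

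Of 22 naive pluripotency genes 3 were higher and 2 lower, against 9.25% and 7.70% over all genes, with a median of 0.13 (-0.04 after quantile normalization). Nanog, Klf4 and Tfcp2l1, transcription factors of the naive network, overlapped between the groups at their brightest probes, with differences of 0.09, 0.07 and -0.01. Nanog was saturated on 2 of the 3 J1-2i arrays, so that its difference was not fully measured. Esrrb (0.34), Klf2 (0.39) and Tbx3 (0.38) were higher and Prdm14, a repressor of the de novo methyltransferases, lower (-0.33) on every array, none by 2-fold. The called genes were Gbx2, which read 2.37 and 2.09 against -0.51, -0.81 and -0.68 (difference 2.90), Dppa2 by the most changed of its probes (2.11, or 2.77 with slide as a term), Fgf4 (-1.25) and Spic (-2.39). The dimmer probe of Tfcp2l1 gave 3.81 and 4.27 against 0.75, 0.58 and 0.98, a difference of 3.27 that turned to -0.14 with slide as a term (adjusted p = 0.80, limma). Fgf4 fell short of 2-fold with that term (-0.87).

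Otx2, which drives exit from the naive state, read -0.01 and -0.16 in 3B3l-2i and 3.63, 3.62 and 3.68 in J1-2i, a difference of -3.73 (SE 0.12, adjusted p = 1.4e-09, limma). The groups lay far apart relative to their spread. Of the 16 formative and primed genes 4 were higher and 2 lower (9.25% and 7.70% over all genes), with a median of 0.19. Lin28a, an RNA-binding protein that blocks let-7 maturation, differed by 2.07 (1.48 with slide as a term), Pou3f1 by 1.43 and Sox3 by 1.96, the last well above background on 2 of the 3 J1-2i arrays. The probes of Grhl2, an epithelial transcription factor, disagreed, at least 1.84-fold lower by one and 1.68 by the other, which lost its call with slide as a term (1.24, adjusted p = 0.30, limma). Fgf5 was not well above background in either group.

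Genes known to answer to Wnt signalling were higher wherever they were called. Of 14 tested 6 were higher and none lower, beside 9.25% and 7.70% over all genes, with a median of 0.61. Over the 8 genes whose brightest probe was well above background on all 16 arrays the median was -0.09. Promoter windows of Sp5, T and Dkk1 are shown because all were higher and because Tcf/Lef factors, the nuclear effectors of Wnt signalling, bind the core CTTTGA. That motif, on either strand as CTTTGA or TCAAAG, is in capitals (GRCm38.p6, + strand for Sp5 and T, - strand for Dkk1, in the direction of the gene).
Sp5, chr2:70474673-70474972: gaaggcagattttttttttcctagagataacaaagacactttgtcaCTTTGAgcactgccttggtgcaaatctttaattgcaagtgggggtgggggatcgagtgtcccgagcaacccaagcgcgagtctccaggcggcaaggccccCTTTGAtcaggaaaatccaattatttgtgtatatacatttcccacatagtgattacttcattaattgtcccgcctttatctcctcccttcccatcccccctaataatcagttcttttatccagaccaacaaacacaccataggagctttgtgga
T, chr17:8434173-8434472: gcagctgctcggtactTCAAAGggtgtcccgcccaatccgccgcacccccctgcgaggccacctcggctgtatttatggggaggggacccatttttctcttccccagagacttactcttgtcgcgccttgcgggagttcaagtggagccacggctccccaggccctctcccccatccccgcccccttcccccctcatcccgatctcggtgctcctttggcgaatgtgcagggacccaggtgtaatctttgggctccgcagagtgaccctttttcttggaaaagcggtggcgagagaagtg
Dkk1, chr19:30549447-30549746: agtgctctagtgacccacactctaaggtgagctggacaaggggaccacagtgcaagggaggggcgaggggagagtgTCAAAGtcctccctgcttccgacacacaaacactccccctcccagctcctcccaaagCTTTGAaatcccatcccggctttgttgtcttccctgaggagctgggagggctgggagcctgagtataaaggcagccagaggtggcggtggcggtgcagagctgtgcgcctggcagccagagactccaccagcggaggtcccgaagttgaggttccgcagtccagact
The windows of Sp5 and Dkk1 hold 2 matches each and that of T 1, while those of Nkd1 and Cdx2 hold 0. The motif is in 16% of all 32851 promoter windows of this length, and a match is only a description of these letters.

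Sp5, a repressor in the Wnt pathway, read 2.88 and 3.21 in 3B3l-2i against 0.11, -0.31 and -0.37 in J1-2i, a difference of 3.23 (SE 0.19, adjusted p = 1.3e-07, limma). T, the brachyury factor of the primitive streak, was not well above background in J1-2i and was at least 8.46-fold higher in 3B3l-2i, where it read -0.45 and -0.23. The caudal homeobox gene Cdx1 read 4.83 and 5.82 against 1.34, 1.18 and 1.35 (difference 4.04), and Cdx2 was at least 10.3-fold higher. The Wnt antagonists Dkk1 and Nkd1 were at least 4.29-fold and 5.03-fold higher, neither well above background in J1-2i, although a second Nkd1 probe was not called (0.79). The feedback inhibitor Axin2 overlapped between the groups (0.18), and Lef1 was not well above background in either.

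Of 11 primitive streak genes 4 were higher and 1 lower, beside 9.25% and 7.70% over all genes, with a median of 0.74. Besides T, Cdx1 and Cdx2 these were Tlx2, a homeobox gene, which read 3.15 and 3.12 against -1.0, -1.14 and -1.18 (difference 4.24, SE 0.35, adjusted p = 2.3e-06, limma), and Gsc, at least 2.44-fold lower. With slide as a term Tlx2 kept its call at 3.32 and Gsc lost it (-0.79, adjusted p = 0.15, limma). The summed linear level of the list, in units of each array's 75th percentile, was 41.9 to 69.6 in 3B3l-2i and 5.41 to 5.77 in J1-2i. Without the probes of Cdx1 and Tlx2 the sum was 4.50 to 4.55 against 2.38 to 2.78. Eomes, another streak factor, differed by 0.25 at its brightest probe. In bulk samples more cells of a type and more RNA per cell cannot be told apart.

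Genes that follow ERK activity moved in part. Of 16 tested 6 were higher and 2 lower, beside 9.25% and 7.70% over all genes, with a median of 0.68. The Ets factors Etv4 and Etv1 read 4.90 and 4.5 against 1.6, 1.48 and 1.55, and 3.28 and 3.07 against 0.50, 0.49 and 0.48, differences of 3.16 and 2.68. The feedback inhibitors Spry2 and Spry4 were also higher, Spry2 by 2.06 and Spry4 at least 5.38-fold. Phlda1 was at least 9.84-fold higher, with a difference that went from 3.30 to 2.33 with slide as a term. Dusp5 was called without being well above background in either group, and Dusp6 (0.90) and Etv5 (0.55) stayed under 2-fold. The lower genes were the immediate early genes Egr1 and Fos. Egr1 was at least 2.29-fold lower in 3B3l-2i, and Fos, well above background on 2 of the 3 J1-2i arrays and not in 3B3l-2i, differed by -1.28 and lost its call with slide as a term (-1.07, adjusted p = 0.076, limma). Ier3 (-0.06) and Fosl1 (-0.007), also immediate early genes, were not called.

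The Nodal list had 4 of 13 genes lower and none higher, against 7.70% lower over all genes, with a median of -0.56. Lefty2 read 1.6 and 1.75 in 3B3l-2i against 5.0, 4.80 and 4.77 in J1-2i, a difference of -3.18 (SE 0.11, adjusted p = 1.4e-09, limma). Lefty1 read 0.30 and 0.50 against 3.38, 3.34 and 3.19, a difference of -2.90. Both encode secreted inhibitors of Nodal, and neither overlapped between groups. Smad3, which carries the Nodal signal, differed by -1.47. Nodal itself differed by 0.32 and was not called (adjusted p = 0.099, limma).

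Of 9 Id and BMP genes 4 were higher and 1 lower, against 9.25% and 7.70% over all genes, with a median of 0.21. The ligand Bmp4 differed by 2.09 and the differentiation inhibitors Id1 and Id3 by 2.30 and 2.75, while Msx2 was at least 8.09-fold higher and Id4 differed by -1.61. Myc and Mycn, which encode related growth-promoting factors, moved in opposite directions. Myc read 1.06 and 1.24 against -2.08, -2.48 and -2.35 (difference 3.45, SE 0.20, adjusted p = 1.2e-07, limma), and Mycn 2.68 and 2.71 against 4.25, 4.24 and 4.21 (difference -1.54, adjusted p = 1.6e-06, limma). None of the 8 LIF and Stat3 genes was called, with a median of 0.05 (-0.10 after quantile normalization), Socs3 at -0.34 and Stat3 at 0.12 by its brighter probe. Of 10 cell cycle genes of G1, 2 were higher and 2 lower, beside 9.25% and 7.70% over all genes, with a median of 0.14. Ccne1 (1.29) and Ccnd2 (2.68, well above background on 1 of the 2 3B3l-2i arrays and no J1-2i array) were higher. Cdkn1c (-1.09, well above background on 2 of the 3 J1-2i arrays and no 3B3l-2i array) and Cdkn1a by its dimmer probe, at least 3.42-fold, were lower, and the brighter probe of Cdkn1a differed by 0.47. Cdkn1c fell short of 2-fold with slide as a term (-0.84).

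Markers of other cell types were examined for cells other than mESCs in either culture, and their counts stand beside 9.25% higher and 7.70% lower over all genes. Of 15 primitive endoderm genes Amn, at least 3.40-fold higher, and Gata4 (1.49) were higher and Lama1 (-1.24) lower, while the defining Gata6 and Pdgfra were not well above background in either group and Sox17 on 1 J1-2i array by 1 of its probes. Their summed level was 34.1 to 36.8 in 3B3l-2i and 43.3 to 49.1 in J1-2i. Gata4 was well above background on 1 3B3l-2i array only and lost its call with slide as a term (1.00, adjusted p = 0.19, limma). Of 15 fibroblast and matrix genes 6 were higher, with Col1a1 (1.94, or 2.59 with slide as a term, well above background on 1 3B3l-2i array and no J1-2i array), Pdgfrb (1.88) and Thy1 (1.79) the most changed, and 1, Dcn (-1.69), was lower. Pdgfrb and Thy1 were well above background on 2 of the 3 J1-2i arrays, and Dcn on 1 of them and no 3B3l-2i array. The list's summed level ranged from 60.2 to 68.0 in 3B3l-2i and from 63.6 to 76.5 in J1-2i. Of 16 trophoblast genes 2 were higher, Cdx2 and Prl3d1, the latter well above background on 1 3B3l-2i array only and at 0.76 with slide as a term (adjusted p = 0.54, limma), and Krt7 was at least 1.89-fold lower. Their summed level was 21.0 to 22.8 in 3B3l-2i and 24.0 to 25.9 in J1-2i. Of 11 neural genes Pax6, not well above background in either group, was higher and the cytoskeletal Map2 (-1.85, well above background on 2 of the 3 J1-2i arrays and no 3B3l-2i array), Nefm (at least 1.1-fold) and Nes (-1.06, or -2.02 with slide as a term) were lower, with summed levels of 26.0 to 29.2 and 11.4 to 37.2.

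The epithelial list had 4 of 13 genes lower and none higher, against 7.70% lower over all genes, with a median of -0.58. The claudins Cldn7 and Cldn4 differed by -2.07 and -1.5, desmoplakin (Dsp) by -1.36, and Krt19 was at least 1.62-fold lower. Of 18 Hox genes, which pattern the body axis, 7 were higher, against 9.25% over all genes, and 1, Hoxc6 (-1.15, well above background on 1 of the 3 J1-2i arrays and not in 3B3l-2i), lower. Hoxa7 differed by 1.96, Hoxb13 by 1.67 and Hoxa3 by 1.34. Hoxa9 (3.57, well above background on 2 of the 3 J1-2i arrays) and Hoxa4 (2.92, not well above background in either group) lost their calls with slide as a term, at 2.00 (adjusted p = 0.091, limma) and 0.99 (adjusted p = 0.58, limma). Of 20 Polycomb genes Pcgf1 (1.34) and Pcgf2 (1.66) were higher and none lower, beside 9.25% and 7.70% over all genes, and neither call remained with that term, Pcgf1 at -0.20 and Pcgf2 at 1.19. The single heterochromatin gene called of 13, the chromatin remodeller Atrx (1.71), was called by 1 of its 3 probes, the others giving 0.16 and -0.05, and stood at 1.14 with the term (adjusted p = 0.091, limma).

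Imprinted genes, expressed from 1 parental allele according to germline methylation, were higher for 9 of 29 and lower for 3, against 9.25% and 7.70% over all genes, with a median of 0.45. With slide as a term 4 of these 9 and 2 of these 3 kept their calls. Mirg, a noncoding RNA of the Dlk1 and Meg3 region, read 3.30 and 2.94 against 1.14, 1.27 and 0.85 (difference 2.03, SE 0.18, adjusted p = 4.9e-06, limma). Mest (1.82) and Peg12 (1.69), both paternally expressed, were also higher, as were Snrpn (1.15 and 1.35 by its brighter probes) and Peg3 (1.17). Peg3 lost its call with slide as a term (0.31, adjusted p = 0.54, limma), and the Snrpn probe at 1.15 then fell short of 2-fold (0.98). Dlk1 by its brighter probe and Plagl1 by the dimmest of its probes (1.18 and 1.27) were no longer called with the term, at 0.81 and 1.43 (adjusted p = 0.19 and 0.1, limma). Magel2 and Nnat were called without being well above background in either group and lost their calls with the term at 1.55 and 1.04 (adjusted p = 0.22 and 0.16, limma). Slc38a4 (-1.5), Phlda2 (-1.58) and Cdkn1c were the lower genes. Meg3 itself differed by 0.52 to 0.66 over its 3 probes and was not called.

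Of 17 hypoxia and glycolysis genes 5 were lower and none higher, against 7.70% lower over all genes, with a median of -0.32. Ndufa4l2, a mitochondrial protein induced by hypoxia, read -0.15 and 0.01 in 3B3l-2i against 1.84, 1.85 and 1.98 in J1-2i (difference -1.96, or -2.74 with slide as a term). P4ha1, a collagen prolyl hydroxylase, was at least 2.37-fold lower and Egln3 at least 2.15-fold lower by the dimmer of its probes, Bnip3 differed by -1.09 by 1 of its 3 probes, and Pfkp by -1.11 by the brighter of its probes. Egln3 (-0.90, adjusted p = 0.057, limma), Bnip3 (-0.75) and Pfkp (-0.67) lost their calls with slide as a term, which left 2 of the 5 genes called. The amino acid stress genes Ddit3 (-1.99), Vldlr (-1.72) and Chac1 (-1.63) were lower, 3 of 13 tested, against 7.70% lower over all genes. The median of that list was -0.05, with 6 genes above and 7 below 0 by their brightest probe. Of 14 betaine, methionine and one-carbon genes 2 were higher and 1 lower, beside 9.25% and 7.70% over all genes, with a median of 0.23. Mat2a, which makes the methyl donor S-adenosylmethionine, was higher (1.05 by a probe saturated on 1 of the 2 3B3l-2i arrays, 0.82 and not called by the other), as was Bhmt2 (1.46), and Aass (-1.28) was lower. With slide as a term Mat2a stood at 0.69 and Bhmt2 at 1.66 (adjusted p = 0.19, limma). No cholesterol or fatty acid synthesis gene of 15 was called, the only interferon gene called of 10 was Oas1a (1.17), beside 9.25% higher over all genes, and Pramel7, at least 1.22-fold lower, was the 1 called of 2 Pramel genes. Neither of the 2 Y-linked and X-inactivation genes tested was called.

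The largest differences outside these lists took in genes of varied kind. Nt5e, the cell surface nucleotidase CD73, read 1.38 and 1.26 in 3B3l-2i, was not well above background in J1-2i and was at least 26.7-fold higher (adjusted p = 2.9e-07, limma). Tex13b and Tcp11, both testis-expressed, were at least 11.2-fold and 10.5-fold higher, and Lgi3 at least 10.1-fold, with 1 of its J1-2i spots left out of the fit as an outlier. Lgi3 lost its call with outlier spots kept and in the authors' normalized table. It also had no value on J1-serum arrays 1 and 3, so the fit with slide as a term had no J1 reading of it on slide 3 and left it at 4.40. Ankrd45 read 3.12 and 3.05 against -0.28, 0.29 and -0.23 (difference 3.16) and lost its call with slide as a term (0.87, adjusted p = 0.29, limma). On the lower side the membrane protein Mal was at least 14.9-fold lower, reading -3.54 and -3.77 against 1.56, 1.46 and 1.71, and the secreted proteins Dkk3 and Mst1 were at least 11.7-fold and 10.2-fold lower. The X-linked heparan sulfate proteoglycan Gpc3 read -1.07 and -1.25 against 1.94, 1.89 and 2.04 (difference -3.12). Vwf (-3.01), Ly6g6e (-3.0), Copz2 (-2.99), Slc12a8 (-2.98), Pga5 (-2.92) and Glod5 (-2.91) followed, none with overlapping groups. Of unnamed probes A_30_P01021593, A_30_P01024606 and A_30_P01022310 were the most raised, at 4.42, 4.21 and 4.06, and A_55_P2121760, A_30_P01021164 and A_55_P2123496 the most lowered, at -2.54, -2.38 and -2.38. A_55_P2121760 turned to 0.87 with slide as a term (adjusted p = 0.14, limma).

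The same lines were compared in serum with 500 U/ml LIF, against 1000 U/ml in 2i. There the J1 cells grew on feeders and the 3B3l cells did not, so that feeders and line cannot be told apart there. In serum 1619 genes were higher in 3B3l, 11.6%, and 1537 lower, 11.0%. Of the genes higher in 2i, 385 were higher in serum too, 29.9% of those in 2i and 23.8% of those in serum, and 119 were lower. Of the genes lower in 2i, 455 were lower in serum too, 42.5% and 29.6% of the respective lists, and 77 were higher. The difference between the media in the line difference was itself called for 2761 genes, 19.8%, among them 1028 of the 2350 genes called in 2i.

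Genes called the same way in both media included Myc, Sp5 and Etv1, with differences of 3.45, 3.23 and 2.68 in 2i and 3.48, 3.46 and 2.63 in serum. Xlr3b (-4.14 and -3.49), Got1l1 (-2.37 and -2.64), Ephx1 (-2.30 and -2.76) and the RNA-binding protein Elavl1 (-2.42 and -2.30) were lower in both. The second probe of Ephx1 (-0.76) and that of Elavl1 (0.49) were not called in 2i.

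Other genes differed between media. The Zscan4 genes were lower in 3B3l than J1 in serum, Zscan4c by -1.29 at the probe described above, where the serum arrays read 1.14 and 0.67 in 3B3l and 2.21, 2.10, 2.29 and 2.17 in J1. The line difference in 2i was thus 4.62 above that in serum (SE 0.21, adjusted p = 2.9e-08, limma). None of the 12 two-cell-like genes was higher in serum and 10 were lower, against 11.6% and 11.0% over all genes there. Stra8 (4.24 in 2i, -1.6 in serum) and Gm8300 (3.00 and -2.17) also changed sign. Nrp2 (-2.22 in 2i and 1.29 in serum), Glod5 (-2.91 and 1.40) and Phldb2 (-1.43 and 2.11) went the other way. Scn3a differed by -1.26 in 2i and was at least 2.50-fold higher in 3B3l in serum, the J1-serum arrays being at background. Mal, at least 14.9-fold lower in 2i, was not well above background in either line in serum, which leaves no comparison there. Dppa3, at least 13.4-fold lower in 2i, differed by -0.19 in serum and was not called there. All 15 primitive endoderm genes were lower in 3B3l in serum, where 11.0% of all genes were, with a median of -2.82, against 1 of 15 in 2i. Of the 15 fibroblast and matrix genes 6 were lower and 1 higher in serum, beside 11.0% and 11.6% over all genes, and the part that feeder cells had in these differences was not tested.

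**Figure D3:**
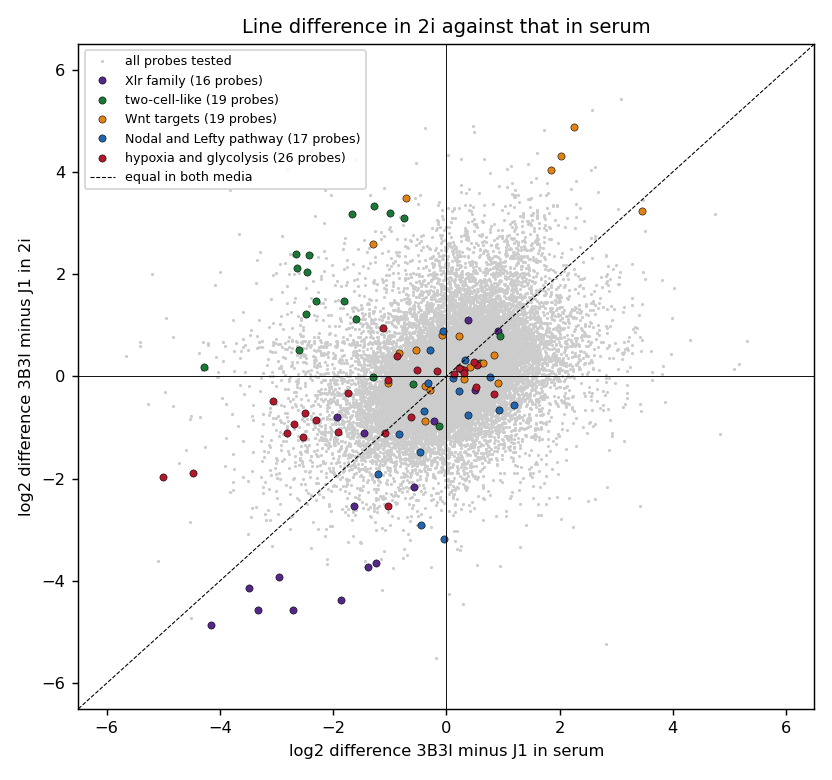
Line difference, 3B3l minus J1, in 2i (log2, vertical axis) against that in serum (log2, horizontal axis) for all probes tested in grey, with the probes of 5 gene lists in colour. Most Xlr probes lie below 0 in both media, and most two-cell-like probes lie above 0 in 2i and below 0 in serum.

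Against TKO-2i the 3B3l-2i arrays differed for 1642 genes, 11.8%. That comparison shares its 3B3l arrays with the one above, so the levels are only set side by side. For Zscan4b all TKO-2i arrays were at background, while the mean was 3.55 in 3B3l-2i and 1.18 in J1-2i. A Zscan4a probe, however, was well above background on all 3 TKO-2i arrays. It averaged -0.34 there, 0.16 in J1-2i and 3.36 in 3B3l-2i, so the near identical copies did not agree on the level in TKO-2i. For Dppa3 TKO-2i averaged 1.65, close to J1-2i. For Sp5 TKO-2i averaged 3.01, close to 3B3l-2i. Etv4 (3.69), Otx2 (1.91) and Lefty2 (3.95) lay between, and Etv4 was 1.01 higher in 3B3l-2i than in TKO-2i (adjusted p = 2.6e-04, limma). Dazl averaged 3.89 and Fkbp6 3.34 in TKO-2i, above both other lines, in the order 3B3l-2i, J1-2i, TKO-2i.

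With each gene read by its brightest probe, 1099 genes were called higher and 903 lower over all 13912. On X 35 were higher and 60 lower of 540 tested. Lower calls also outnumbered higher ones on chromosomes 8 (65 against 52), 12 (35 against 31), 13 (38 against 27), 16 (27 against 26) and 17 (44 against 43), the last 2 by a single gene. The RefSeq promoter table held an entry for 11095 of the 13912 genes tested. The median number of CG in the 300 base window was 17 for genes called higher, 15 for genes called lower and 20 for genes not called. Windows with fewer than 8 CG made up 28.9%, 28.3% and 17.9% of these groups. The CTTTGA motif was in 14.4% of windows of genes called higher, 13.6% of those called lower and 12.3% of those not called. Genes with several promoter entries were read by the first, and Zscan4a and Dppa3 had no match.

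With slide as a term 1857 genes were called, 1338 of them shared with the 2350 and in the same direction. Of the 135 called probes among the 146 chosen for naming, 21 lost their call. Measured differences also moved from 5.43 to 6.32 for Nt5e, from 3.49 to 2.79 for Tcp11, from 3.98 to 4.59 for Spry4, from -4.57 to -3.31 for Xlr5b and from -1.89 to -2.49 for Rhox4e, all called in both fits and each with 1 group at background. Xlr3b, Otx2, Lefty2, Dppa3, Stra8, Sp5 and Myc remained called.

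**Figure D4:**
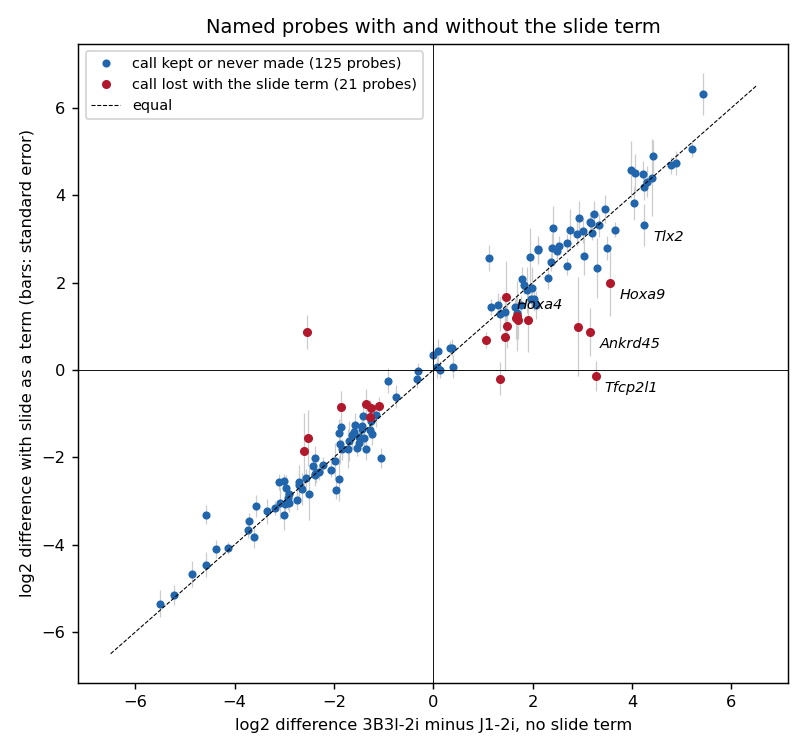
Difference between 3B3l-2i and J1-2i (log2) for the 146 probes chosen for naming, without slide as a term (horizontal axis) and with it (vertical axis), with the probes that lost their call marked. Of these 21 probes, the dimmer Tfcp2l1 probe went from 3.27 to -0.14, while most probes stay near the diagonal.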

How the data were processed

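Gene expression was measured on Agilent mouse 1-colour arrays in 16 samples. The authors extracted and labelled the RNA, scanned the arrays and ran Agilent Feature Extraction 11.5.1.1, and per the file headers the deposited scanner files give an intensity for each spot after background subtraction. The authors also deposited a normalized log2 table, whose scale, centring and direction are not stated. Its columns had medians of 8.28 to 8.43, and 13 of 16 matched another replicate of the same group best, so it served only as an alternative. The processed intensity of each spot was divided by the 75th percentile of the array's non-control spots and put on the log2 scale, outlier spots were left out, and spots of 1 probe were averaged. Because array number is small, precision is limited to a median standard error of 0.19 in this comparison. Probes were named through RefSeq accessions (28026 probes, 21154 genes), and a gene's level in lists is that of its brightest probe.

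All 16 arrays entered 1 limma 3.58.1 model (R 4.3.3) of 6 group means, so that the groups share 1 estimate of spread. Outlier spots left 875 of the tested probes with a missing value on at least 1 array. The methods' t-test, other scalings, filters, blocks and single arrays left out were alternatives. The scripts were tested on simulated data. Whether replicate numbers pair the samples could not be decided. Same-numbered arrays correlated at -0.13 and -0.11 in their deviations from the group means, while other pairs ranged from -0.01 to 0.13. With 2 arrays in 3B3l-2i the deviations of 1 are the negative of the other's, so these values mirror each other.

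Genes were named in the text by rules: the methyltransferases and pluripotency factors whatever their values, the largest differences among measured genes, the largest bounds, the most changed called members of each list, and the largest differences between media or shared by them. A gene named this way is given by its most changed called probe unless another is stated. Other list members were named after their values were seen, and some called members are not reported here. The samples compared, the gene lists and the rules were chosen with earlier results of these data known. Promoters are RefSeq's, on GRCm38.p6, matched by gene symbol, with both strands searched for CTTTGA.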

Additional observations from a re-analysis of the deposited data

Results flagged for a closer look

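Difference between media. For 28 named probes the line difference, 3B3l minus J1, was called in opposite directions in 2i and in serum and the difference between media was itself called by limma, out of 83 named probes where that difference was called. Values below are the line difference in 2i minus that in serum, on the log2 scale. J1-serum cells grew on feeders, whose part in these values was not tested. The unnamed probes A_30_P01021593 (7.40), A_30_P01022310 (6.87) and A_30_P01024606 (6.87) stood highest, followed by the meiotic gatekeeper Stra8 (5.85). Among the two-cell-like genes the values were 5.05 for Usp17la, with Zscan4a at 4.85 and 4.20 by its probes, Zscan4b at 4.79 and Zscan4c at 4.74 and 4.62, beside Gm8300 (5.17) and BB287469 (5.16). The other genes higher in 2i and lower in serum were Amn (4.58), Tex101 (3.93), Thy1 (3.57), Gata4 (3.39) and Pdgfrb (3.15). Usp17la, Amn, Tex101 and Gata4 were not well above background in J1-2i, nor Usp17la and Pdgfrb in 3B3l-serum, so that these sizes rest in part on background readings. In the other direction the measured values were Glod5 (-4.30), Chac1 (-3.75), Dsp (-3.64), Phldb2 (-3.54), Nrp2 (-3.51), the unnamed A_30_P01021164 (-3.50) and Nes (-2.86). Values that rest in part on background readings were those of Krt7 (-4.38) and Grhl2 by its brighter probe (-4.33), not well above background in 3B3l-2i, Scn3a (-4.40), not so in J1-serum, and Mal (-8.04), not so in 3B3l-2i or in either serum group, and they have no order among the others.

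Single arrays far from their group. Among the 4 J1-serum arrays, the largest group of the series and the only one examined, 14 of 145 named probes had 1 array whose gap to the nearest other array exceeded Dixon's critical share of the group's range. Chance flags about 1 in 20 groups, or 7.2 probes. The named probes were chosen largely by differences that coincide with slide, and some read near identical copies, so their count cannot be set against chance. In the fit with slide as a term, 1067 of 26238 probes differed between slides 3 and 1 (adjusted p at most 0.05, limma). In 11 of the 14 that array was J1-serum 1, the only J1 array on slide 3. The gap as a share of the range was 0.939 for the dimmer Tfcp2l1 probe, where J1-serum 1 read 1.46 and the others -1.94, -2.06 and -1.85, and 0.933 for the unnamed A_55_P2121760, where it read -1.92 and the others 1.35, 1.55 and 1.58. J1-serum 1 was also apart for Etv1 (0.917), Pcgf1 (0.900), Dazl (0.882), Phlda1 (0.877), Sox3 (0.870), Cdkn1a by its dimmer probe (0.868), Mat2a (0.860), Dppa3 (0.856) and Usp17la (0.839). J1-serum 4 was apart for Rhox4g (0.936) and Rhox6 (0.889), and J1-serum 3 for Zscan4b (0.880).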

How the results depend on the processing

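The 2350 genes called between 3B3l-2i and J1-2i became 2334 with array median scaling, 2258 with quantile normalization, 2044 in the authors' normalized table, 2342 with outlier spots kept, 2417 in a fit of the 5 arrays alone, which ended the calls of Brdt, Dcn and the raised Grhl2 probe, 2176 with slide as a random block and 3009 without a filter on dim probes. The authors' table and quantile normalization, which moved the median of all probes from 0.10 to -0.01, gave 48.2% and 48.5% of calls higher instead of 54.6%. With normexp background correction 1680 genes were called, and those lower went from 1071 to 677. Over probes well above background on all 16 arrays 1046 were called, 604 higher and 443 lower of 10144 genes tested. In that set serum had 1719 calls with 626 lower, the difference between media 1392 and the comparison with TKO-2i 669. Without a fold limit 6725 genes were called, 3953 higher and 2853 lower, at an adjusted p of 0.01 it was 2028, with 1 probe a gene 2002, and by the methods' t-test 2304, or 1947 after Benjamini-Hochberg adjustment. Slide as a fixed block gave 1857. The replicate numbers are not known to pair the samples, and with them as a block 2264 genes were called, 2173 of them shared. That block ended the calls of Lgi3, Mat2a and Prl3d1 among the named probes.

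Leaving out 1 array in turn gave 2078 to 2428 calls in 2i, 1110 to 1269 higher and 973 to 1169 lower. It gave 3050 to 3401 in serum, 1587 to 1748 higher and 1409 to 1675 lower, 2641 to 2768 for the difference between media and 1557 to 1691 against TKO-2i. Where this left 1 array of 3B3l-2i, that array was assumed to vary like the other groups. Of 146 named probes 12 lost their call in at least 1 such fit. Without 3B3l-2i array 1 these were Tdg (1.71), Gata4 (1.07), Cdkn1c (-0.88), Prl3d1 (1.08), Hoxa4 (2.75), Pcgf1 (1.23), Bhmt2 (1.57), A_55_P2121760 (-2.27) and the raised probes of Grhl2 (1.71) and Sly (1.1), without 3B3l-2i array 2 also Nes (-0.96), and without J1-2i array 3 also Mat2a (0.99). Dazl passed 2-fold without 3B3l-2i array 2 (-1.05) and without J1-2i array 2 (-1.01).

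Normexp ended the calls of 16 named probes, among them Dcn, Col1a1, Fos, Gsc, Nes, Map2, Nefm, Hoxc6, Cdkn1c, Aass, Pramel7, Phldb2, Prl3d1, the most changed Dmc1 probe and the raised Sly probe. Of 31 list medians 19 moved by more than the spread within groups under quantile normalization and 19 with slide as a fixed block, 13 under normexp, 9 and 10 without 3B3l-2i array 1 or 2, while 18 moved and 2 more turned in the authors' table, 12 moved and 2 turned of 30 over probes well above background on all arrays, and none did under array median scaling. Sign changes, some of them close to 0, occurred for 11 of the 31. Under quantile normalization the naive (-0.04), LIF and Stat3 (-0.10), trophoblast (-0.04), fibroblast (-0.06) and Polycomb (-0.02) medians fell below 0, and over probes above background on all arrays the Wnt median did (-0.09). Those that turned further were the medians of the G1 list (-0.19 in the authors' table), of the Rhox list (0.68 in that table and 1.29 over probes above background on all arrays) and of the primitive endoderm list (-0.27 over the latter probes), and single probes turned with slide as a fixed block, namely the dimmer Tfcp2l1 probe (-0.14), the lower Sly probe (0.14), Pcgf1 (-0.20) and A_55_P2121760 (0.87). That block moved another 15 called probes of those chosen for naming by over 1.5 times without ending their call, and among other probes of the listed genes Hoxb2 (2.14 to 3.48), Xlr5a (-2.16 to -3.68), Sycp1 (1.11 to 2.04), a second Scn3a probe (-1.91 to -1.17) and a second Xlr5c probe (-2.53 to -1.93). The causes were not tested. Signal over background limited the comparison, since a probe not well above background in 1 group gives only a bound.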
